A study of Panicum virgatum with 54 samples.

Results

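The comparison described here followed drought-treated switchgrass leaves from their own start. It used 18 of the 54 RNA sequencing libraries of the series, the 3 drought libraries at 0 h and the 15 at 72, 96, 120, 144 and 168 h (3 at each time), and every gene of the count table. Switchgrass (Panicum virgatum) is a perennial C4 grass. All plants are given as ramets, which are vegetative offshoots, of the single genotype AP13 from the lowland cultivar Alamo. By that description the plants of every group were 1 clone, which was not tested here. Leaf RNA was taken at the stage that the labels call E3. The other libraries were 18 controls and 18 from plants given drought and heat together, here called combined, at the same 6 times. One growth chamber held the controls and the drought plants, and another held the combined plants. The labels do not say how water was withheld, how dry the plants became, at what hour of the day leaves were cut, or whether a group's 3 libraries were cut from different plants. What the p-values measure is therefore library-to-library spread, some of which may be technical.

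Leaves that lose water close their stomata, accumulate the hormone abscisic acid, make protective proteins and osmolytes, and lower the expression of genes of photosynthesis and growth. A time course within the treated plants has a limit as a measure of that response. Leaves also change with age and with the hour of the day, and many plant transcripts cycle daily under the circadian clock, so a comparison of treated leaves with their own start takes in all changes over the same hours. The control libraries, cut at the same labelled times, are therefore given beside each result. The table identifies genes by codes of the Pavir v4.1 form and pairs them with no names, so genes are given here by identifier and chromosome only (in a code such as 5N, the digit and letter give the chromosome within the K or N subgenome of this polyploid), and markers of leaf tissue or of known drought genes could not be checked.

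The drought libraries held 22.4 to 61.6 M counted reads each (M for mega, median 33.0 M), and the 10 most abundant genes took 3.95% to 6.90% of them. Log2 scaled counts correlated across genes at 0.796 to 0.939 between libraries of the same time (median 0.860) and at a median of 0.868 between libraries of different times, so these medians lay close together. Almost no reads of 399 genes were found in 4 drought libraries, namely replicate 1 at 0 h, replicates 1 and 2 at 120 h and replicate 1 at 144 h, where the median relative level of the set was at most 0.0107 of that in the libraries that hold it. Its level was 0.657 in replicate 2 at 96 h and 0.294 in replicate 1 at 168 h, and 0.836 to 1.10 in the other drought libraries. Among the combined libraries used below, replicate 2 at 0 h (0.00567) and replicate 2 at 72 h (0.00427) nearly lacked the set too, and replicate 1 at 72 h was intermediate (0.367). The set was chosen for low levels in drought replicate 1 and combined replicate 2 at 0 h. Its near absence in those 2 libraries was thus fixed by the choice. The median log2 difference of the 399 genes between the later times and 0 h was 0.01. Results below are also given without these libraries. Leaving out the 4 drought libraries keeps only replicate 3 at 120 h, and replicates 2 and 3 at 0 h and 144 h. Lower counts there can also come from having fewer libraries, which was not tested.

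Against their own start, drought leaves had lower levels of 406 genes and higher levels of 41 over the later times. Of 31982 genes tested, 1.4% were called at an adjusted p below 0.05 in edgeR's quasi-likelihood test with Benjamini-Hochberg adjustment, 1.27% as lower and 0.128% as higher, and 5082 had an unadjusted p below 0.05. These calls depended on the tool. Limma with voom called 0 lower and 0 higher genes (4764 unadjusted), and with an estimated correlation of 0.254 among libraries of the same number 0 and 2, while DESeq2 called 873 and 674. The falls were large. Over the 406 genes the median log2 difference was -3.24 (quartiles -4.93 and -2.01), and 394 of them fell at least 2-fold and 151 at least 16-fold. The median of all genes tested was -0.01. In whole leaves, fewer cells of a type and less RNA per cell cannot be told apart. By time, their median log2 difference was -3.19 at 72 h, -3.35 at 96 h, -3.56 at 120 h, then -3.29 for 144 h and -2.14 for 168 h. All 5 differences share the 0 h libraries and helped choose the genes, so their likeness is a description only, and edgeR called 0 genes at 72 h alone (2470 unadjusted).

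The starting level that these 406 genes were compared with differed widely between the 3 libraries at 0 h. Levels below are in scaled CPM, which are read counts relative to each library's scaled size. At 0 h the median level of the 406 genes was 8.42 CPM in replicate 1, 1.73 in replicate 2 and 30.4 in replicate 3. In the 15 later libraries it ran from 0.893 to 4.47 CPM with a median of 1.21. Replicate 2 at 0 h thus lay inside the range of the later libraries, and the other two 0 h libraries lay above it. Replicate 3 at 0 h was the highest of all 18 drought libraries for 334 of the 406 genes, and replicate 1 at 0 h for 62. Among the 3 libraries at 0 h, replicate 2 was the lowest for 363. For 132 genes (32.5%) replicate 3 was at least 10 times the mean of the other two, against 0.794% of all genes tested. All 3 libraries at 0 h lay above all 15 later ones in 12 of the 406 genes (2.96%), and in 0.153% of all genes.

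**Figure D1:**
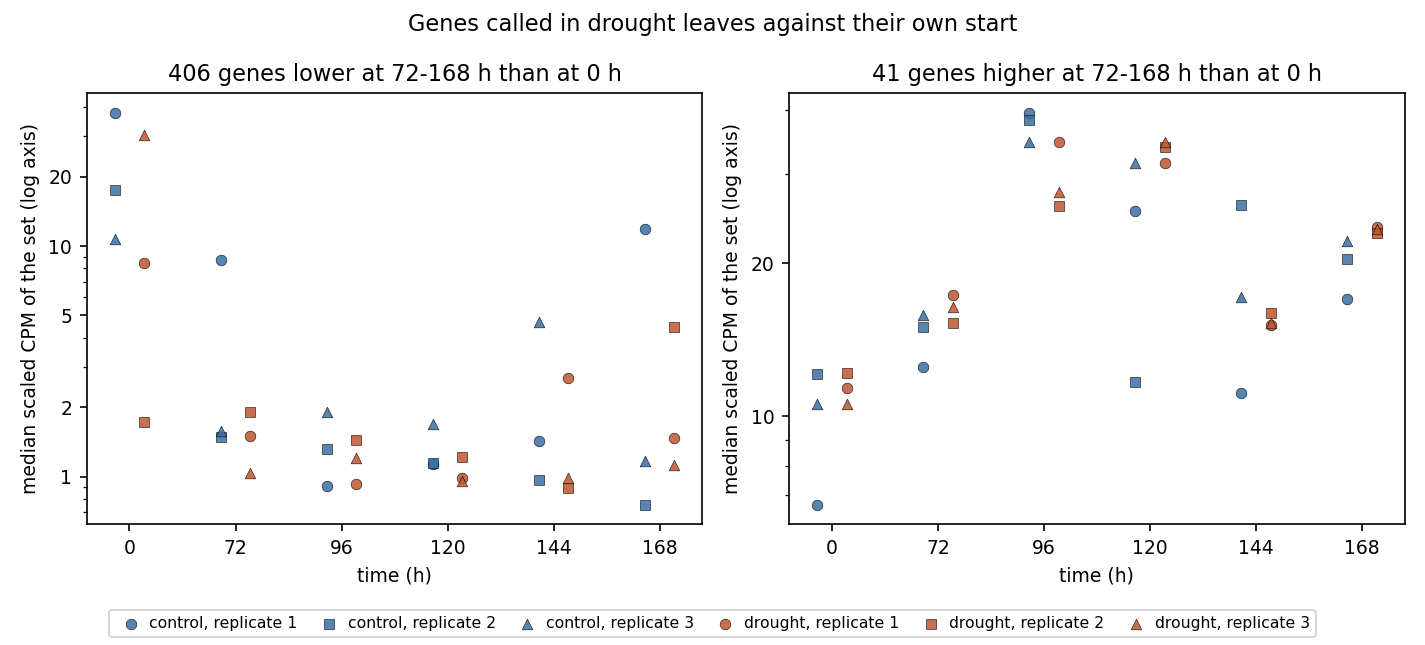
Median scaled CPM (log axes) of the 406 genes called lower and the 41 genes called higher in drought leaves after 0 h, for each drought and control library by time in h; each point is 1 library and the marker gives its replicate number. In the lower set the drought libraries at 0 h spread from 1.73 to 30.4 CPM, and in the higher set the drought libraries of each time lie close together, with 96 and 120 h highest.

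The 2 lower genes named by rule, those lowest in p among genes averaging 5 CPM or more, show the same spread. Pavir.3NG015600.v4.1, on chromosome 3N, was at 6.24, 2.56 and 277 CPM in the 3 libraries at 0 h and at 0.302 to 3.79 CPM (median 1.13) in the 15 later ones. Its log2 difference was -6.12 ± 0.77 (SE, n = 3 against 15, adjusted p = 0.00606 in edgeR's quasi-likelihood test). Pavir.5KG543100.v4.1, on chromosome 5K, was at 3.32, 0.260 and 134 CPM at 0 h and at 0 to 1.17 CPM (median 0.0589) later. Its log2 difference was -8.12 ± 1.04 (SE, edgeR adjusted p = 0.00606). In both genes replicate 2 at 0 h overlapped the later libraries, and replicate 3 stood far above the other two. Neither passed the test at any single later time, with adjusted p of 0.0714 or more. Without replicate 3 at 0 h the differences were -1.71 and -3.47, with edgeR adjusted p of 0.434 and 0.428.

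Control leaves started high in the same genes. The median level of the 406 genes in the control libraries at 0 h was 37.7, 17.5 and 10.7 CPM, and in the 15 later control libraries it ran from 0.757 to 11.9 CPM (median 1.43). The highest later control values were 11.9 CPM in replicate 1 at 168 h, 8.70 in replicate 1 at 72 h and 4.69 in replicate 3 at 144 h, each apart from the other libraries of its time. In the model of the 36 control and drought libraries, 343 of the 406 genes (84.5%) also fell in control leaves against their own 0 h, where 12.5% of all genes did (19.6% in either direction), with a median log2 difference of -3.16. In edgeR 0 of the 406 genes passed the test of a different change in drought than in control leaves, which 0.025% of all genes did. An unadjusted p below 0.05 was found there in 33 (8.13%) against 19.0% of all genes, and the median of that difference was -0.02. The drought libraries at 0 h differed widely in these genes, which limits the reach of that test. The missed threshold therefore does not show that the 406 genes changed alike in drought and control leaves. The 343 genes were 8.62% of the 3980 genes that fell in control leaves and were also tested in the drought model, whose median log2 difference in drought leaves was -0.49. The combined plants, in their own chamber, had lower levels of the 406 genes at 0 h, at 3.27, 2 and 0.711 CPM.

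The number of genes called rested on single libraries, most of all on those at 0 h. Without replicate 3 at 0 h, edgeR called 0 genes in either direction and 3242 had an unadjusted p below 0.05. The 406 genes then had a median log2 difference of -1.53, and 387 of them kept its sign. They were chosen on libraries that this fit keeps, so the kept sign is a description only. Without replicate 2 at 0 h, the library lowest in these genes, 1101 genes were called lower and 134 higher. Without replicate 1 at 0 h, 247 were called lower and 3 higher. Of the later libraries, replicate 2 at 168 h moved the counts furthest, to 853 lower and 249 higher when left out. It also had the highest level of the 406 genes among the later libraries. The count of lower genes further moved by over 1.5 times, to 235, 269, 233 and 248, without replicate 3 at 72 h, replicate 1 at 96 h, and replicates 2 and 3 at 144 h. The count of higher genes fell to between 17 and 27 without those 4 libraries or without replicate 1 at 72 h, replicate 3 at 96 h, replicates 1 and 3 at 120 h, or replicates 1 and 3 at 168 h, taken one at a time. Without the 4 libraries that nearly lack the set of 399 genes, 0 genes were called in edgeR and 3271 had an unadjusted p below 0.05.

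**Figure D2:**
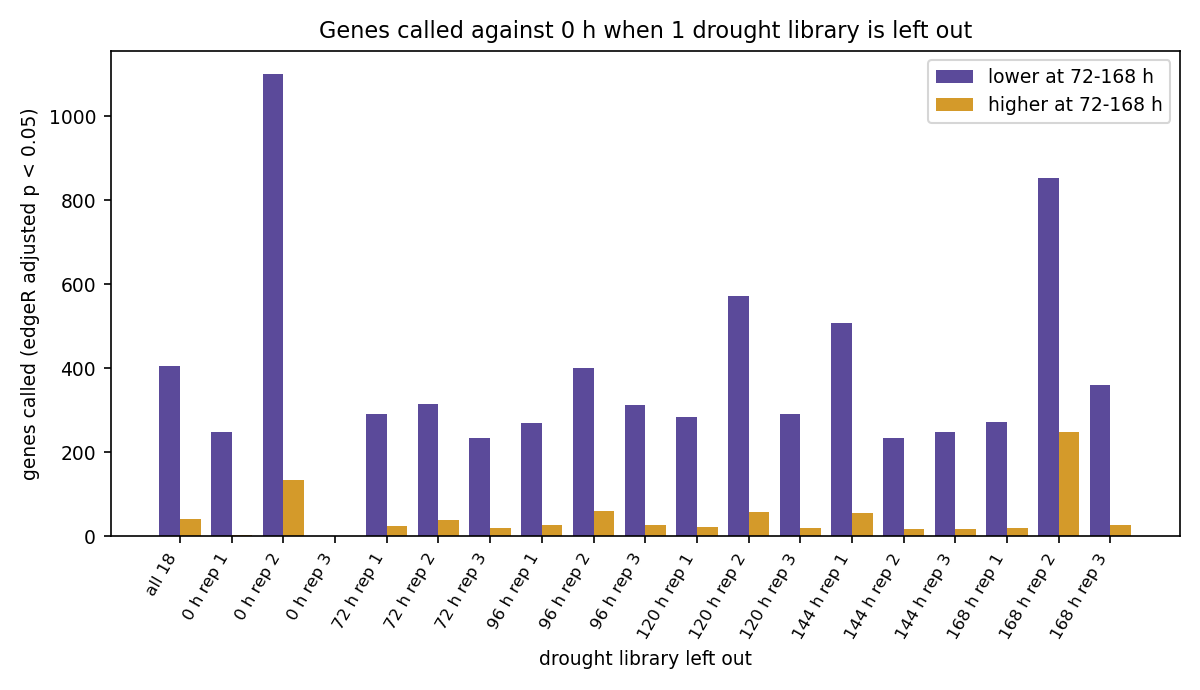
Number of genes called lower or higher at 72 to 168 h than at 0 h (edgeR adjusted p below 0.05, vertical axis) with all 18 drought libraries and with each library left out in turn (horizontal axis). The counts reach 0 without replicate 3 at 0 h and are highest for lower genes, at 1101, without replicate 2 at 0 h.

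The 41 higher genes rose less. They were chosen on these 18 libraries, so the closeness of their replicates and the counts in the next sentences are descriptions only. Their median log2 difference was 1.05 (quartiles 0.87 and 1.25), and 24 rose at least 2-fold. In the 3 libraries at 0 h their median level was 11.4, 12.2 and 10.6 CPM. It was 17.3, 15.3 and 16.4 CPM at 72 h, then 34.7, 25.9 and 27.6 CPM at 96 h, and 31.5, 33.8 and 34.6 CPM at 120 h. At 144 h it was down to 15.1, 16.0 and 15.3 CPM, and at 168 h it was 23.6, 22.9 and 23.4 CPM. All 15 later libraries lay above all 3 at 0 h in this median, and the course went up, down and up again rather than in 1 direction. Of the 41 genes, 14 (34.1%) had every later library above every library at 0 h, against 0.419% of all genes tested, 30 had their largest difference at 120 h, and 32 had a higher mean than at 0 h at all 5 times. Their levels at 96 and 120 h were both above those at 72 and 144 h in 39 genes (95.1%), a pattern that 23.2% of all genes tested had. Without replicate 3 at 0 h all 41 genes were still higher later, with a median of 1.00. In edgeR each had an unadjusted p below 0.05, though none passed the adjusted threshold. The genes were chosen on these same libraries, so the kept sign and p are descriptions too.

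The 2 higher genes named by rule followed that course. Pavir.5NG479700.v4.1, on chromosome 5N, measured 21.6, 27.3 and 25 CPM at 0 h and 38.1, 26.6 and 31.5 CPM at 72 h. It reached 74.5, 58.0 and 67.0 CPM at 96 h and 59.7, 50.3 and 65.1 CPM at 120 h, then 28.3, 35.3 and 35.5 CPM (144 h) and 45.4, 41.4 and 54.8 CPM (168 h). The libraries at 0 h overlapped those at 72 h and lay below all others. Its log2 difference over the later times was 0.87 ± 0.15 (SE, edgeR adjusted p = 0.0111). Pavir.9NG743900.v4.1, on chromosome 9N, was at 7.68, 7.90 and 7.58 CPM at 0 h, the tightest start of the named genes, and at 8.30 to 30.8 CPM (median 16.9) in the 15 later libraries. No later library of this gene reached down to the start. Its log2 difference was 1.13 ± 0.20 (SE, edgeR adjusted p = 0.0134). For both genes the call was lost in 9 of 30 alternative settings, with log2 differences of 0.79 to 0.95 and 0.98 to 1.23 over all 30.

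Of the 41 higher genes 25 also rose in control leaves. In control libraries the median level of the 41 was 6.71, 12.1 and 10.6 CPM at 0 h and 11.1 to 39.5 CPM (median 20.4) in the 15 later libraries. It was 12.5, 15 and 15.8 CPM at 72 h, then 39.5, 38.3 and 34.7 CPM at 96 h and 25.3, 11.7 and 31.5 CPM at 120 h. For 144 h it was 11.1, 26 and 17.2 CPM, and for 168 h 17.0, 20.4 and 22.1 CPM. Control replicate 2 at 120 h and replicate 1 at 144 h thus lay inside the range at 0 h, and the other later control libraries lay above it. The 25 are 61.0% of the 41, where 7.09% of all genes rose in control leaves against their own 0 h, and 40 had the same sign. The remaining gene fell in control leaves and was 1 of the 8 genes, described below, whose change differed between the treatments. The median log2 difference in control leaves was 1.10. The 25 genes were 1.10% of the 2269 that rose in control leaves. In the combined plants these genes were higher than in the shared chamber already at 0 h, at 24.2, 26.7 and 19.4 CPM.

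At single times the calls against 0 h were few and fell at 96 and 120 h. At 120 h, 111 genes were called (0.347% of genes tested, 6059 with an unadjusted p below 0.05), 87 as higher (0.272%) and 24 as lower (0.075%). At 96 h, 31 genes were called (0.0969%, 4124 unadjusted), 25 as higher (0.0782%) and 6 as lower (0.0188%). With the replicate number as a block, edgeR called 1700 genes at 120 h and 152 at 96 h. For 72, 144 and 168 h edgeR called 0 genes each (0% of genes tested, with 2470, 3378 and 2961 unadjusted), and limma with voom called 0 at these times too, where DESeq2 called 205, 521 and 393. Between 168 and 72 h directly, edgeR called 0 genes (1709 unadjusted), limma with voom 0 and DESeq2 91. In simulated counts for the mean comparison of 15 libraries with 3, over 31981 genes, the test recovered 84% of the 4-fold changes and 14% of the 2-fold changes. Those changes were placed only in genes averaging 5 CPM or more, with no library standing apart as at 0 h. Recovery in the real libraries may thus be lower. The reach of the tests at single times, 3 libraries against 3, was not simulated. Leaving out replicate 1, 2 or 3 at 0 h gave 5, 333 and 31 genes at 120 h and 0, 289 and 12 at 96 h, and leaving out replicate 1 or 3 of the time itself gave 15 and 19 at 120 h and 0 and 13 at 96 h. Without replicate 2 at 0 h, 7 genes were called at 72 h and 9 at 144 h, and without replicate 2 at 168 h, 106 were called at 168 h. Fewer genes were called at 96 and 120 h without the 4 libraries that nearly lack the set of 399 genes. That fit keeps only 1 library at 120 h.

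The 5 later times also differed among themselves, in a comparison of their means alone, though the 0 h libraries enter the shared estimate of the spread. An F test over the 5 times called 170 genes (0.532% of genes tested, edgeR adjusted p below 0.05, 2385 with an unadjusted p below 0.05). In 124 of them (72.9%) the means at 96 and 120 h were both above those at 72 and 144 h, in 41 (24.1%) both below, and in 5 neither. The lowest mean was at 144 h in 120 genes, and the highest at 120 h in 87. The test picks genes with a small spread within a time, so the closeness of the libraries below is a description only. Relative to each gene's mean over the drought libraries, the median log2 level of the 124 genes was -0.24, -0.37 and -0.25 for 72 h, 0.72, 0.68 and 0.64 for 96 h, and 0.74, 0.79 and 0.85 for 120 h. It was -1.02, -1.07 and -0.98 for 144 h and 0.15, 0.27 and 0.26 for 168 h, while the libraries at 0 h lay at -0.61, -0.41 and -0.45. The change from 120 to 144 h was thus the largest step between neighbouring times, and the libraries of these times did not overlap. The 41 genes of opposite course mirrored this, at 0.92, 1.07 and 0.85 at 144 h and -0.96, -0.87 and -1.02 at 120 h. Of the 170 genes, 23 were also called against 0 h, 16 of them as higher. The count fell to 105 without replicate 1 at 72 h and to 103 without replicate 1 at 96 h. Without replicate 1 or 3 at 120 h it was 95 and 93. Without replicate 1, 2 or 3 at 144 h it was 92, 50 and 57. The count also fell without the 4 libraries that nearly lack the set of 399 genes, a fit that keeps only 1 library at 120 h.

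The 2 genes with the smallest p in that test moved in opposite directions. Pavir.5NG587400.v4.1, on chromosome 5N, was at 37.6, 43.0 and 51.4 CPM at 72 h, then 10.6, 9.89 and 12.8 CPM at 96 h, and 11.8, 10.9 and 10.5 CPM at 120 h. It was at 69.2, 69.2 and 59.9 CPM at 144 h and 24.1, 18.7 and 24.2 CPM at 168 h. The libraries at 96 and 120 h lay below all others of the later times, and those at 144 h above all others (edgeR adjusted p = 0.000294). Pavir.9KG468800.v4.1, on chromosome 9K, was at 47.8, 37.9 and 25.2 CPM at 72 h, then 135, 129 and 99.7 CPM at 96 h, and 154, 146 and 141 CPM at 120 h. It then stood at 18.6, 18.5 and 13.7 CPM at 144 h and at 64.4, 64.8 and 64.3 CPM at 168 h. Here the libraries at 120 h lay above all others, those at 144 h below all others, and the 3 libraries at 168 h were nearly equal (edgeR adjusted p = 0.000353). Without the 4 libraries named above, the adjusted p of Pavir.9KG468800.v4.1 was 0.0540.

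**Figure D3:**
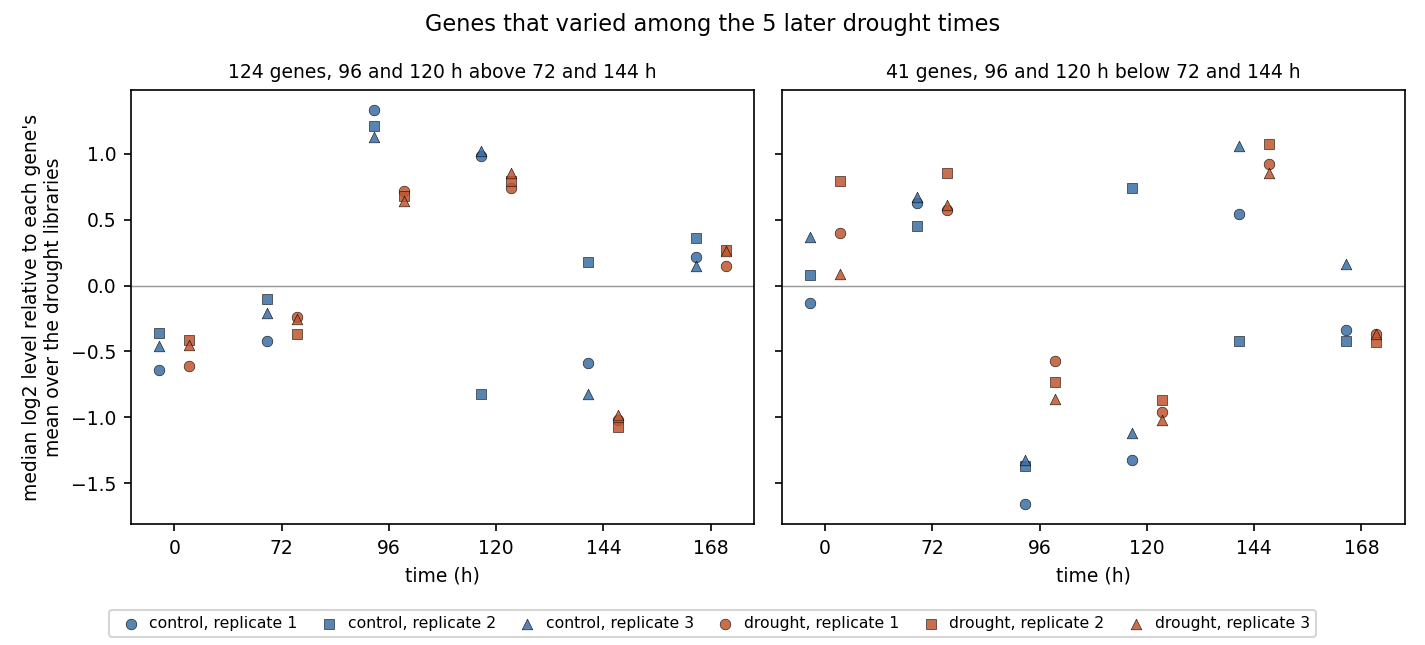
Median log2 level of the genes that differed among the 5 later drought times, relative to each gene's mean over the drought libraries, by time in h for each drought and control library; each point is 1 library and the marker gives its replicate number. Drought libraries of the 124 genes fall from 0.74 to 0.85 at 120 h to about -1.02 at 144 h, and control replicate 2 lies apart from the other control libraries at 120 h and at 144 h.

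Control leaves differed in the same direction in these genes, but few passed the threshold there. A contrast of the mean of 96 and 120 h with the mean of 72 and 144 h was added after the pattern had been seen in the drought libraries. In drought leaves it called 717 genes, 439 higher and 278 lower (2.24% of genes tested, 1.37% higher and 0.869% lower), and 159 without the 4 libraries that nearly lack the set of 399 genes. In the 18 control libraries, which had no part in choosing the 170 genes, all 170 had the same sign as in drought leaves, with a median size of 1.21 on the log2 scale against 1.60. Of the 170, 155 (91.2%) had an unadjusted p below 0.05 in that direction in control leaves, which 16.4% of all genes had in either direction, and 9 (5.29%) passed the adjusted threshold, where 0.191% of all genes did. Control replicate 2 at 120 h lay at -0.82 in the median of the 124 genes, where the other two of its time lay at 0.98 and 1.02. Control replicate 2 at 144 h lay at 0.18, where the other two lay at -0.59 and -0.82. These 2 control libraries thus went against their labelled times in these genes, and whether their labels are exchanged was not tested. That doubt touches every control value at 120 and 144 h. Without both, a choice made from these very values, the contrast called 2806 genes (8.79% of all genes), which is given as a description and not as support. Over all genes the control contrast called 61, 41 higher (0.128%) and 20 lower (0.0627%). Limma with voom called 2 genes there, and edgeR with the replicate number as a block 0 (5246 with an unadjusted p below 0.05). Leaving out control replicate 2 at 120 h alone gave 1626, replicate 2 at 144 h alone 468 and replicate 3 at 72 h 113, and leaving out any other control library of these 4 times gave 0 to 19 (3595 to 5570 with an unadjusted p below 0.05). In the combined plants, of 169 genes with a value 166 had the same sign and 127 (75.1%) an unadjusted p below 0.05 in that direction, against 18.6% of all genes, while edgeR called 0 genes over all (5937 unadjusted). Combined replicate 3 lay apart from replicates 1 and 2 there, at 72 h and at 120 h. It had 609 CPM of Pavir.9KG468800.v4.1 at 72 h, against 91.9 and 131, and 77.7 CPM at 120 h, against 524 and 422. Of Pavir.5NG587400.v4.1 it had 0.764 CPM at 72 h, against 23.6 and 16, and 7.44 CPM at 120 h, against 0.835 and 0.437. These libraries were kept as labelled.

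The difference of this contrast between drought and control leaves was tested directly. edgeR called 0 of 32011 genes (1670 with an unadjusted p below 0.05), limma with voom 0 and DESeq2 6. Of the 170 genes, 10 had an unadjusted p below 0.05. A p that misses the threshold does not show that the courses were equal. In Pavir.9KG468800.v4.1 the difference was 0.13 ± 0.42 (SE) on the log2 scale, and in Pavir.5NG587400.v4.1 it was -0.31 ± 0.46.

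**Figure D4:**
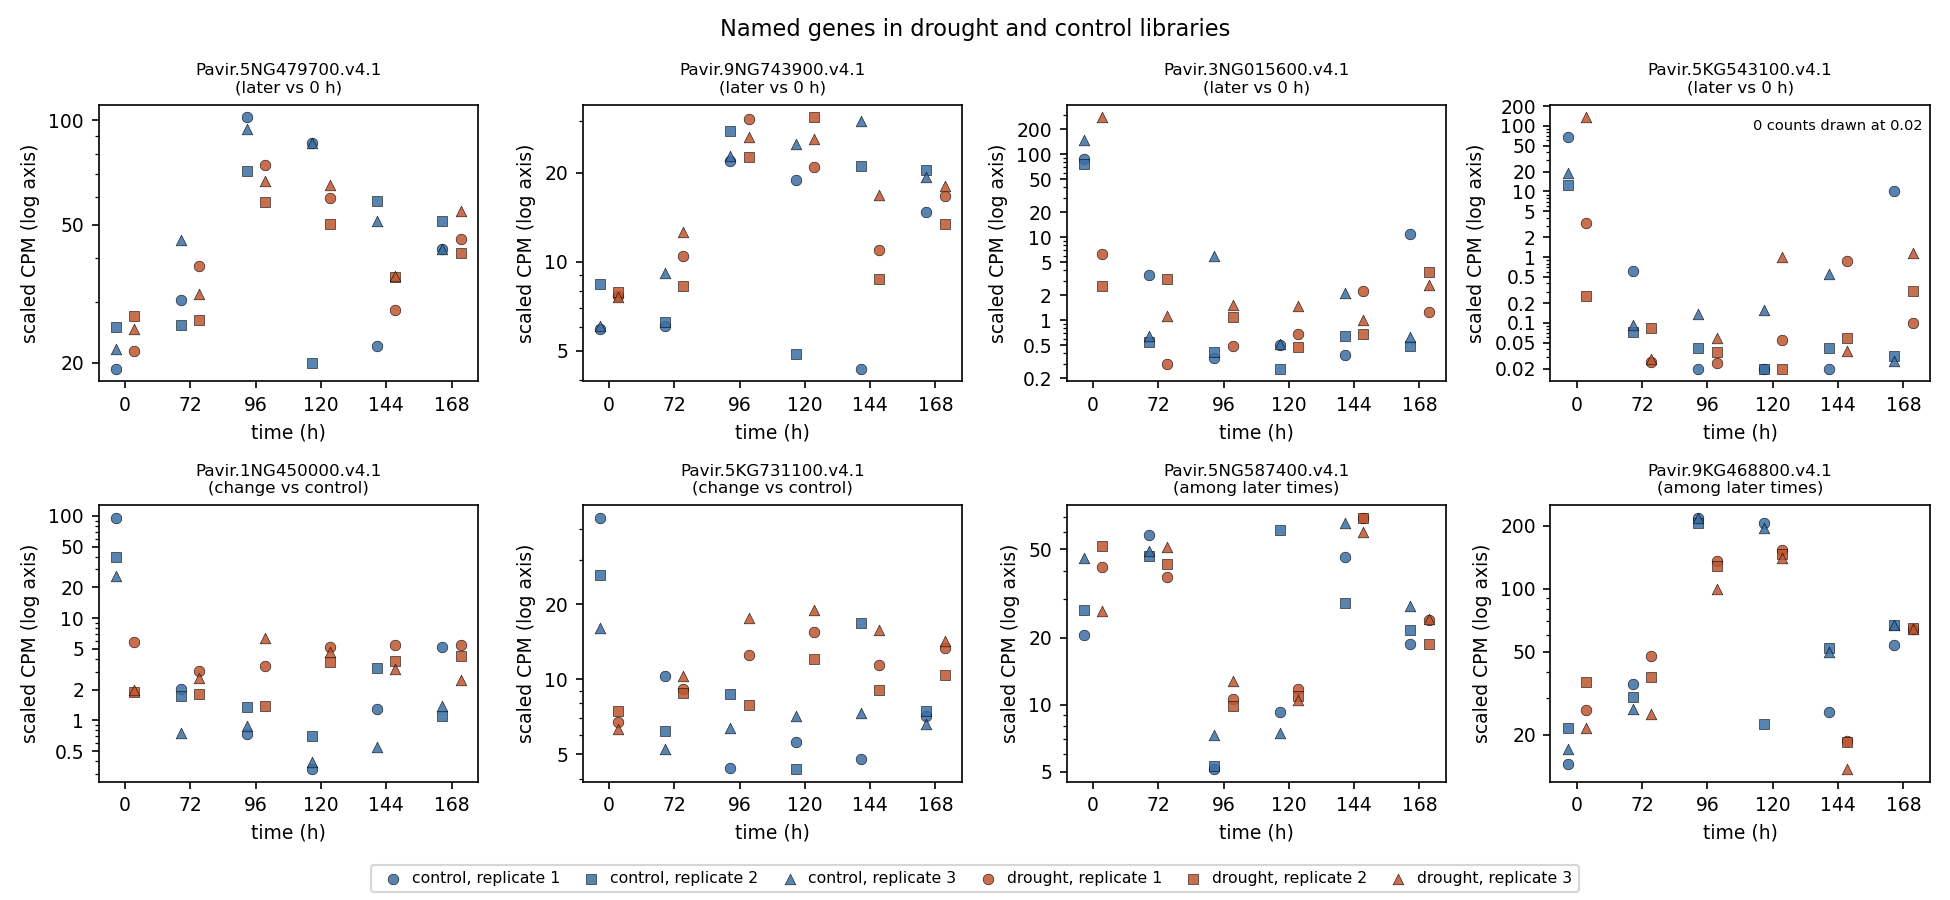
Scaled CPM (log axes) of the 8 genes named by rule, by time in h, for each drought and control library; each point is 1 library, the marker gives its replicate number and the words under each identifier give the comparison it was named for. In the 2 genes named for a different change than control, the control libraries at 0 h lie above the drought libraries at 0 h.

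Whether drought leaves changed differently from control leaves over the same hours was tested as the difference of the 2 changes, in a model of 36 libraries. It called 8 genes, 0.025% of 32011, and 6067 had an unadjusted p below 0.05. All 8 were higher in drought relative to control, and all 8 fell in control leaves, by log2 differences from -5.39 to -0.48. In drought leaves the same genes differed from 0 h by -0.59 to 0.84, and 1 of the 8 passed the test there. In each of the 8 the control mean at 0 h was above the drought mean at 0 h.

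Pavir.1NG450000.v4.1, on chromosome 1N, had the smallest p. In control leaves it was at 95.3, 40.0 and 25.9 CPM at 0 h and at 0.333 to 5.26 CPM (median 1.11) later. In drought leaves it was at 5.90, 1.89 and 2 CPM at 0 h and at 1.38 to 6.42 CPM (median 3.71) later. The control libraries at 0 h stood above every other control and drought library, and the drought libraries at 0 h lay among the later ones. The changes differed by 5.56 ± 0.78 on the log2 scale (SE, edgeR adjusted p = 0.00369). Pavir.5KG731100.v4.1, on chromosome 5K, was at 44.2, 26.2 and 16.0 CPM in control leaves at 0 h and at 4.36 to 16.8 CPM (median 6.60) later. In drought leaves it was at 6.71, 7.46 and 6.32 CPM at 0 h and at 7.87 to 19.0 CPM (median 12) later, with every later library above the 3 at 0 h. Its change in drought leaves was 0.84 ± 0.23 (SE, edgeR adjusted p = 0.0864), and the changes differed by 2.83 ± 0.43 (SE, edgeR adjusted p = 0.00719). The count of 8 also rested on the start. It was 913 (566 higher and 347 lower) without drought replicate 3 at 0 h, 1 without drought replicate 1, 0 without drought replicate 2 (4109 with an unadjusted p below 0.05), 2 without control replicate 1 at 0 h, and 1 without the 4 libraries that nearly lack the set of 399 genes. DESeq2 called 880, limma with voom 11 and edgeR with the replicate number as a block 1493.

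The first 72 h were unheated, per the titles, in both chambers, so the step from 0 to 72 h could be set beside the same step in the combined plants. In the model of all 54 libraries edgeR called 0 genes in drought leaves (3044 with an unadjusted p below 0.05), 0 in combined plants (3801) and 0 for the difference of the steps (3480), where limma with voom called 0 and DESeq2 207. Of the genes with an unadjusted p below 0.05, 348 were common to both steps, 11.4% of the drought list and 9.16% of the combined list. Over all genes, 11.9% had such a p in the combined step and 9.51% in the drought step, so the overlap was near the background. Of the 348, 177 had the same sign. The 406 lower genes had a median log2 step of -3.18 in drought leaves and 0.51 in combined plants. The 41 higher genes had 0.63 and 0.59. Both lists were chosen on the drought libraries, so the drought steps are descriptions only. In the combined libraries at 0 h the median level of the 406 genes was already 3.27, 2 and 0.711 CPM. The later drought libraries ran from 0.893 to 4.47 CPM, so the combined start left little room for a fall. In the combined libraries at 72 h the median level of the 406 genes was 1.12, 8.12 and 1.09 CPM, with replicate 2 apart. That of the 41 genes was 20.2, 29.6 and 70.2 CPM, with replicate 3 apart. Without combined replicate 1 at 72 h, the difference of the steps was called in 27 genes.

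The called genes were spread over the genome. Of the genes tested, 205 of 15651 on the K subgenome fell and 185 of 14884 on the N subgenome (1.31% and 1.24%), and 23 and 18 rose. By chromosome the share that fell ran from 0.817% on 6N to 1.89% on 3N. No gene was switched on or off as a whole. No gene had 0 counts in all 3 libraries at 0 h and at least 10 in each of the 15 later ones, and none had the reverse.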

How the data were processed

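The authors deposited raw read counts for 32190 genes, in whole numbers and with no normalization. The submitters' processing notes name TopHat, Cufflinks and HTSeq. The versions, genome build, annotation and strand setting were not given in the sources used here. Per the labels, libraries were stranded. Reads shared by near-identical K and N copies or by overlapping genes make such genes uncertain. Titles of 94 h were read as 96 h and of 1 week as 168 h. No identifier matched the RefSeq table of 74976 genes (P.virgatum_v5), so no sequence is shown.

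edgeR 4.0.16 (R 4.3.3) was used with its default filter (minimum count 10, minimum total 15), the trimmed mean of M values, quasi-likelihood tests and Benjamini-Hochberg adjustment, with calls below 0.05. The drought model had 6 group means, 12 residual degrees of freedom and a biological coefficient of variation of 0.463, and removed 208 genes. Scaled CPM used the scaling of all 54 libraries, and counts of libraries above or below others used that of the drought libraries. Models of 36 and 54 libraries served the comparisons with control and combined plants. No replicate was a copy, since counts within groups varied by 57.8 times or more what sampling gives. The test was tried on simulated counts. Alternatives used DESeq2 1.42.0, limma 3.58.1, other filters, models and libraries. Named genes are, per direction, the 2 called with the smallest p among those averaging 5 CPM or more. The genes, lists and comparisons were chosen with earlier results of these data known. The set of 399 genes came from a search of 31609 genes for levels at least 2 log2 units apart among the 0 h libraries. Its genes are those low in drought replicate 1 and combined replicate 2 at 0 h.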

Additional observations from a re-analysis of the deposited data

Results flagged for a closer look

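The change over time differed between drought and control leaves in 8 genes, by a test of the difference itself. It was 5.56 on the log2 scale for Pavir.1NG450000.v4.1 and 2.83 for Pavir.5KG731100.v4.1. In both genes the control libraries at 0 h were higher than the drought libraries at 0 h, at means of 53.7 and 28.8 CPM against 3.26 and 6.83. The combined plants at 0 h were at 1.24 and 7.35 CPM, near the drought libraries.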

How the results depend on the processing

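None of the 6 named genes that have a direction changed sign in any alternative, while the number of genes called depended on the tool, the model and single libraries. The causes were not tested. Precision is limited by having 3 libraries at 0 h. In simulated counts 68% of 4-fold and 8% of 2-fold differences among the later times were recovered (31980 genes), and 50% and 3% of differences from the control change (32010 genes). These differences too were placed only in genes averaging 5 CPM or more, with no library standing apart. DESeq2's size factors in edgeR, no filter on low counts and, for most comparisons, limma with voom gave counts within 1.5 times those reported.

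For the mean of the later times against 0 h, higher and lower genes numbered 674 and 873 in DESeq2, 0 and 0 in limma with voom (4764 with an unadjusted p below 0.05), 2 and 0 in limma with an estimated correlation of 0.254 among libraries of the same number, 12 and 105 with a stricter filter, 224 and 853 in a model of all 54 libraries, and 0 and 84 without the 120 h libraries, a choice made after seeing the data. Treating the later libraries as 1 group gave 13 higher genes. Without the libraries nearly lacking the set of 399 genes, and without those and the intermediate libraries, both counts were 0 (3271 and 3397 unadjusted). Leaving out 1 library at a time gave 0 to 249 higher and 0 to 1101 lower genes.

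At single times, for 72, 96, 120, 144 and 168 h in that order, DESeq2 called 205, 1123, 2153, 521 and 393 genes, and 91 between 168 and 72 h. Limma with the correlation called 159 at 96 h and 761 at 120 h. The model of all 54 libraries called 0 at 96 h (4920 unadjusted), 764 at 120 h and 8 at 168 h. Without the libraries nearly lacking the set, and without the intermediate ones too, fewer were called at 96 and 120 h than in the main model. Both fits keep only 1 library at 120 h. Leaving out 1 library gave 0 to 7 genes for 72 h, 0 to 289 for 96 h, 5 to 333 for 120 h, 0 to 9 for 144 h, 0 to 106 for 168 h and 0 between 168 and 72 h.

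Among the later times, DESeq2 called 1149 genes, limma with the correlation 442, the model of all libraries 363 and the fit without 120 h 60. The count was 7 without the libraries nearly lacking the set, 0 without the intermediate ones too, and 50 to 251 leaving out 1 library. For the contrast of 96 and 120 h with 72 and 144 h the counts in drought leaves were 1588, 1411, 159 and 74 for DESeq2, limma with the correlation and the fits without those libraries, and 356 to 719 leaving out 1. In control leaves they were 1687 in DESeq2, 2 in limma, 9 in limma with the correlation, 96 with a stricter filter, 489 in the model of all libraries, 2806 without the 2 control libraries that went against their times, and 0 to 1626 leaving out 1. The difference of that contrast gave 6 genes in DESeq2, 6 without the lacking and intermediate libraries, and 0 leaving out any 1.

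For the change relative to control, DESeq2 called 880 genes and limma with the correlation 1278. The count was 1 without the libraries nearly lacking the set, 1 without the intermediate ones too, and 0 to 913 leaving out 1. For the 72 h step between chambers, DESeq2 called 207 genes, the fit without the lacking and intermediate libraries 4, and leaving out 1 library gave 0 to 27.

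The replicate numbers were not taken as pairs in the main models. Of 45 same-numbered pairs of drought libraries, 34 had deviations from the group means that correlated above 0.1 (median 0.348, lowest -0.25). Of 90 different-numbered pairs 18 did (median -0.203). Deviations from a group mean cancel out within each time, so the values of different-numbered pairs are not separate evidence. Of 18 libraries 16 correlated best with another of their own number, which is a hint from the data and not from the design. With the replicate block, higher and lower genes against 0 h numbered 163 and 530, and calls numbered 152 at 96 h, 1700 at 120 h, 1 at 144 h, 493 among the later times, 1806 for the contrast of 96 and 120 h with 72 and 144 h, 0 for that contrast in control leaves, and 1493 (629 higher and 864 lower) for the change relative to control.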
